A study of Pan troglodytes with 8 samples.

Results

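Great ape genomes carry families of genes that were copied by segmental duplication, and 164 of the 60583 named rows of the chimpanzee-genome count table belonged to the families followed here. The members were all rows whose symbol begins with NPIPA, NPIPB, NBPF, GOLGA6, GOLGA8, TBC1D3, ANKRD20A, POTE, FAM72, SRGAP2, NOTCH2NL, ARHGAP11, MTRNR2L or AGAP4 to AGAP9, without a hyphen, which makes 14 families. A hyphen removed 3 further rows. The letters TBC1D3 also took in TBC1D30, TBC1D31 and TBC1D32, which are separate single-copy genes of the TBC domain class and are given apart, leaving 161 family rows. Counts of members below include them unless said otherwise. The human-genome table held 112 of the 164 symbols.

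RNA was measured in cells sorted from cerebral organoids of SandraA, a chimpanzee induced pluripotent stem cell line, collected at week 8 of culture within 3 days either side. All groups share that 1 line, with no further genotype or treatment named in the labels. The 4 sorted populations were neurons positive for BCL11B (N), basal intermediate progenitor cells (bIP), basal radial glia (bRG) and apical radial glia (aRG), each with 2 libraries made from 10000 cells by a SmartSeq 2 type protocol. The same 8 libraries were counted on the chimpanzee genome (panTro6) and on the human genome (hg38), which allows the reads of each duplicated family to be followed between copies on both genomes.

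Copies made by segmental duplication stay nearly identical in sequence, so a short read often matches several of them, and how a counting step treats such reads sets which copy receives them. Several families have copies known from the human lineage. The libraries come from a chimpanzee line, so counts on rows of such copies do not show that the line carries or expresses them. ARHGAP11B, a truncated copy of ARHGAP11A, raises the number of basal progenitors when expressed in mouse or ferret neocortex. SRGAP2C is a partial copy of SRGAP2 that inhibits the parent protein in neurons, and NOTCH2NL genes are partial copies of NOTCH2 that strengthen Notch signalling in radial glia. NBPF genes encode arrays of Olduvai domains, GOLGA6 and GOLGA8 copies derive from golgins, NPIP genes are core elements of duplications, and MTRNR2L genes are nuclear copies related to the mitochondrial large ribosomal RNA gene.

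Library totals were 24649971 to 33245892 counts on panTro6 and 11635116 to 16447389 on hg38. Over shared symbols the panTro6 totals were 1.70 to 1.74 times the hg38 totals, so levels set side by side between genomes are CPM, read counts relative to the total over the 18137 shared symbols. Levels set side by side between populations are CPM after TMM scaling, a trimmed mean of gene-wise ratios, within 1 table (TMM-scaled CPM). Summed radial glia markers (6 genes) were at 61.9 to 143 TMM-scaled CPM in N, 428 to 445 in bIP, 1738 to 2010 in bRG and 2910 to 2926 in aRG. Summed neuron markers (5 genes) were at 3032 to 3541 in N, 1635 to 1792 in bIP, 345 to 757 in bRG and 151 to 318 in aRG. Most of the neuron sum in N was NEUROD6 (1818 to 2377), and the list includes BCL11B, the protein that marks the sorted N cells. SLC17A6 (55.3 and 64.2 in N, 74.2 and 71.5 in bIP) and RBFOX3 (154 and 121 in N, 178 and 223 in bIP) went the other way between N and bIP. Intermediate progenitor markers (5 genes) were highest in bIP at 2961 to 3879. The sum of 5 basal radial glia markers did not set bRG apart, with 708 to 1100 in N, 611 to 741 in bIP, 508 to 707 in bRG and 578 to 741 in aRG. Most of it was PTPRZ1 (688 to 1082 in N), and HOPX, FAM107A, TNC and LIFR were each higher in every bRG and aRG library than in any N library. These genes did not set bRG apart from aRG either. HOPX was lower in both bRG libraries (33.5 and 28.2) than in both aRG libraries (41.9 and 49.7), and the bRG and aRG libraries overlapped for FAM107A, TNC and LIFR. Choroid plexus markers (5 genes) were at 942 to 3249 in aRG, and in N, bIP and bRG they lay between 30.3 and 76.2.

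On panTro6 most family members carried no count. A total of 115 of 164 members (70.1%) were listed at 0 in all 8 libraries, against 16.1% of all named rows. Of the 49 members with any count, 39 stayed under 100 counts in every library and 10 reached 100 in at least 1. Of the 50 members with a mean of at least 1 CPM over shared symbols on hg38, 35 (70.0%) were listed at 0 on panTro6, against 3.45% of all shared symbols at that level. A row at 0 need not mean that the transcript is absent, because genes used by every cell were listed at 0 there too, among them the splicing factor SFPQ and the ribosomal protein genes RPL18 and RPS15 (1129, 570 and 432 CPM on hg38). On hg38, 10 of the 112 members were at 0 in all 8 libraries, against 214 of all 18137 rows, and each of these 10 was also at 0 on panTro6.

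The family sums differed between genomes by amounts that depended on the family. Without TBC1D30 to TBC1D32, all members together took 258 ± 67.0 CPM on panTro6 and 7033 ± 1324 CPM on hg38 (SD over 8 libraries here and for all values between genomes). That was 0.0258% of the counts over shared symbols on panTro6 and 0.703% on hg38. MTRNR2L, NPIPB and GOLGA8 made up most of the hg38 sum, and SRGAP2 and NBPF most of the panTro6 sum.

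**Figure D1:**
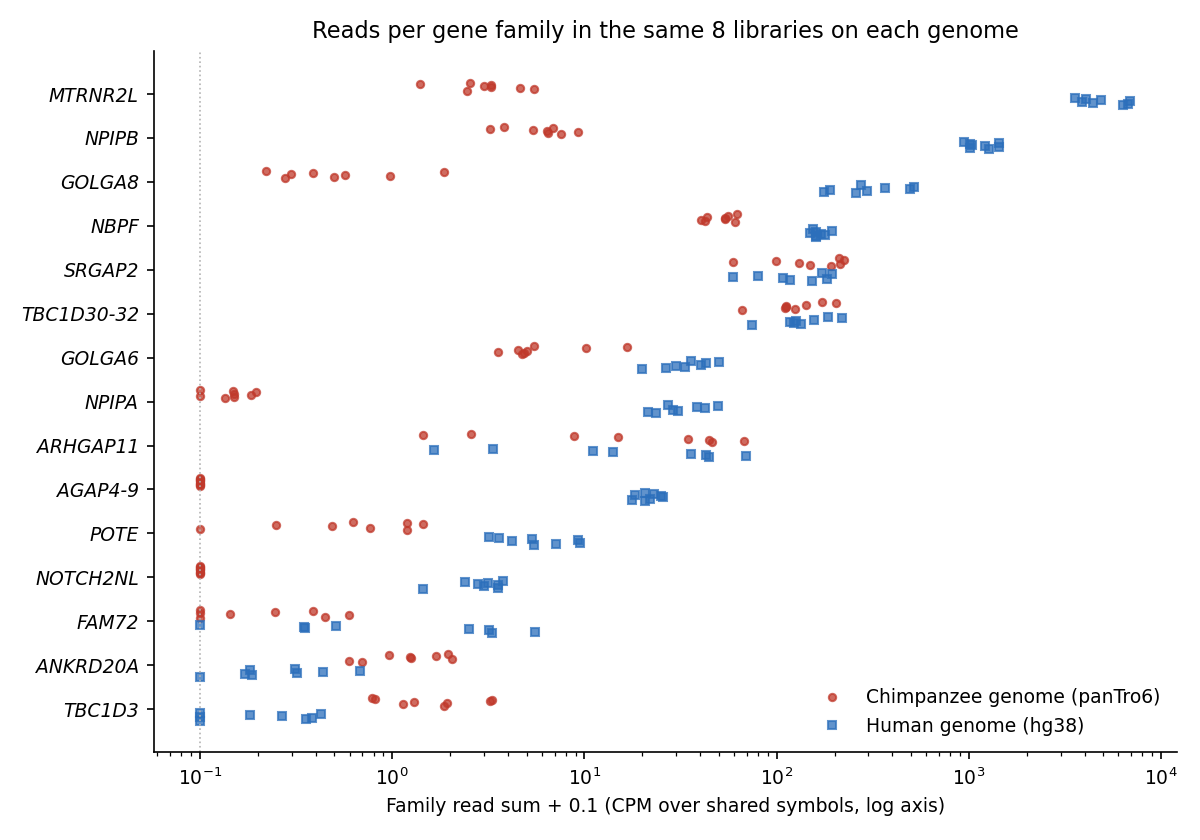
Reads per family in the same 8 libraries. Each point is 1 library, the horizontal axis is the family's read sum plus 0.1 in CPM over shared symbols on a log scale, circles are panTro6 and squares hg38. MTRNR2L, NPIPB and GOLGA8 circles and squares are far apart, whereas those of SRGAP2, ARHGAP11 and TBC1D30-32 lie over each other.

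A symbol was called lower or higher on panTro6 when log2((CPM on panTro6 + 1)/(CPM on hg38 + 1)) passed 1 in size in the same direction in all 8 libraries. This describes how the same reads were counted and carries no test. Of the 51 members with at least 1 CPM on either genome, 34 were lower on panTro6, against 5.24% of the 15123 shared symbols. No member was higher (0 of 51), against 0.278% of shared symbols. The median of the members' log2 ratios was -2.27, whereas the median of all shared symbols lay between 0.03 and 0.04 in the 8 libraries. Of the 34 lower members, 28 were listed at 0 on panTro6.

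**Figure D2:**
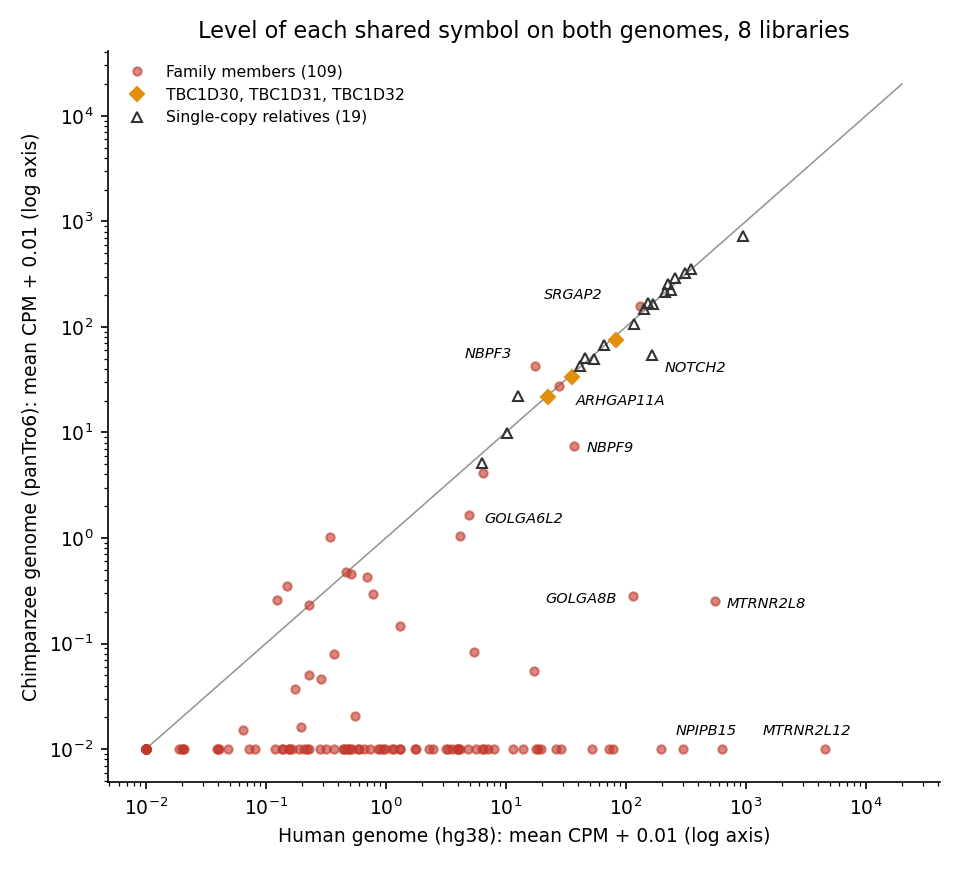
Mean CPM over shared symbols plus 0.01 on panTro6 (vertical, log axis) against hg38 (horizontal, log axis) over 8 libraries. Circles are the 109 family members on both genomes, diamonds are TBC1D30, TBC1D31 and TBC1D32, triangles are 19 single-copy relatives, and the line marks equal levels. Of the family members, 82 lie on the bottom edge, where the panTro6 count is 0, whereas SRGAP2 and ARHGAP11A lie near the line and NBPF3 above it, and the diamonds and all triangles but NOTCH2 stay near the line.

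Single-copy relatives of the families were read at close levels on both genomes, with 1 exception. A list of 20 such genes (NOTCH receptors, SRGAP1 and SRGAP3, AGAP1 to AGAP3, golgins GOLGA1 to GOLGA5 and others) had 19 members on both genomes, of which 1 was lower on panTro6 and 0 were higher. Their median log2 ratio was 0.03 and the highest was 0.72, for USP6, a ubiquitin protease gene that arose by fusion with a TBC1D3 copy. The exception was NOTCH2, the receptor from which the NOTCH2NL copies derive, with 53.8 CPM on panTro6 and 166 CPM on hg38 and a log2 ratio of -1.51 ± 0.22. The other listed relative, MT-RNR2, the mitochondrial gene that MTRNR2L genes resemble, was listed at 0 on panTro6, as were all 37 mitochondrial rows of that table, and the hg38 table used here had 0 such rows.

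MTRNR2L genes, annotated as sources of humanin-like peptides, showed the widest gap. The 13 rows together took 3.15 ± 1.28 CPM on panTro6 and 5113 ± 1362 CPM on hg38. On hg38, MTRNR2L12 held 89.0% ± 0.68 of the family's reads and MTRNR2L8 held 10.8% ± 0.67, and these shares were nearly the same in every library. MTRNR2L12 was listed at 0 on panTro6 and had a lowest, median and highest library of 3172, 4162 and 6116 CPM on hg38. MTRNR2L8 had 0.0955, 0.249 and 0.414 CPM on panTro6 and 380, 487 and 790 CPM on hg38. The libraries of both genomes did not overlap for either gene. The rest of the family was low on both genomes, with MTRNR2L1 at a mean of 1.03 CPM on panTro6 and 4.19 CPM on hg38 and MTRNR2L10 at 0.0735 CPM on panTro6 and 5.38 CPM on hg38. MTRNR2L4, MTRNR2L7 and MTRNR2L13 had similar means on both, such as 0.466 CPM on panTro6 and 0.453 CPM on hg38 for MTRNR2L4.

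NPIPB genes, whose family name refers to nuclear pore interaction, were read on panTro6 through a single row. NPIPB1P had 65 to 220 counts per library there, and the other 14 of 15 rows were listed at 0. The family sum was 6.02 CPM on panTro6, all of it NPIPB1P, and 939 to 1439 CPM on hg38. The hg38 table held 12 of the 15 symbols, without NPIPB1P, and 11 of these 12 reached 1 CPM. NPIPB15 took 54.5% ± 6.80 of the hg38 reads, NPIPB2 25.5% ± 3.16 and NPIPB6 6.24% ± 3.26. NPIPB15 had a lowest, median and highest library of 512, 629 and 731 CPM on hg38, and NPIPB2 had 208, 297 and 399 CPM. NPIPB6, NPIPB11, NPIPB8, NPIPB12, NPIPB5, NPIPB9 and NPIPB4 followed with means of 78.2, 72.7, 28.9, 26.4, 18.7, 7.95 and 3.18 CPM on hg38, and all were listed at 0 on panTro6. Shares here count reads and are not corrected for the length of a copy, so they say how reads divide and not which copy has more transcripts.

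The related NPIPA family had 7 rows, of which 6 were listed at 0 on panTro6. Its 1 row with reads there, NPIPA1, had at most 2 counts in a library. On hg38 NPIPA1 had a lowest, median and highest library of 10.1, 16.4 and 28.0 CPM and held 52.4% ± 9.50 of the family's 32.6 ± 9.71 CPM. NPIPA5, NPIPA3 and NPIPA7 had means of 6.32, 4.17 and 3.96 CPM on hg38.

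NBPF genes divided in a different way on each genome. The family took 51.5 ± 8.48 CPM on panTro6 and 166 ± 14.4 CPM on hg38, so that the panTro6 sum was 31.1% of the hg38 sum. On panTro6, 15 of 23 rows were listed at 0, and NBPF3 held 81.9% ± 6.22 of the reads and NBPF9 14.9% ± 4.84. On hg38, NBPF1 held 31.8% ± 2.90, NBPF9 22.4% ± 1.77, NBPF15 11.8% ± 1.93 and NBPF3 10.7% ± 1.69. NBPF3 had the highest mean log2 ratio of the 51 members compared, with a lowest, median and highest library of 29.9, 45.0 and 56.2 CPM there and 13.8, 18.3 and 20.4 CPM on hg38. Its libraries did not overlap between genomes, and its log2 ratio of 1.20 ± 0.19 was not called, since it was under 1 in some libraries (lowest 0.92). NBPF9 had 5.06, 7.01 and 12.6 CPM on panTro6 and 32.3, 38.6 and 40.5 CPM on hg38. NBPF1, at 45.1, 52.6 and 60.3 CPM on hg38, was listed at 0 on panTro6. NBPF15 and NBPF12, with means of 19.7 and 14.0 CPM on hg38, were at 0 there too, as were NBPF11, NBPF20, NBPF26, NBPF10 and NBPF14, with 6.60, 5.59, 4.82, 4.02 and 3.54 CPM on hg38.

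**Figure D3:**
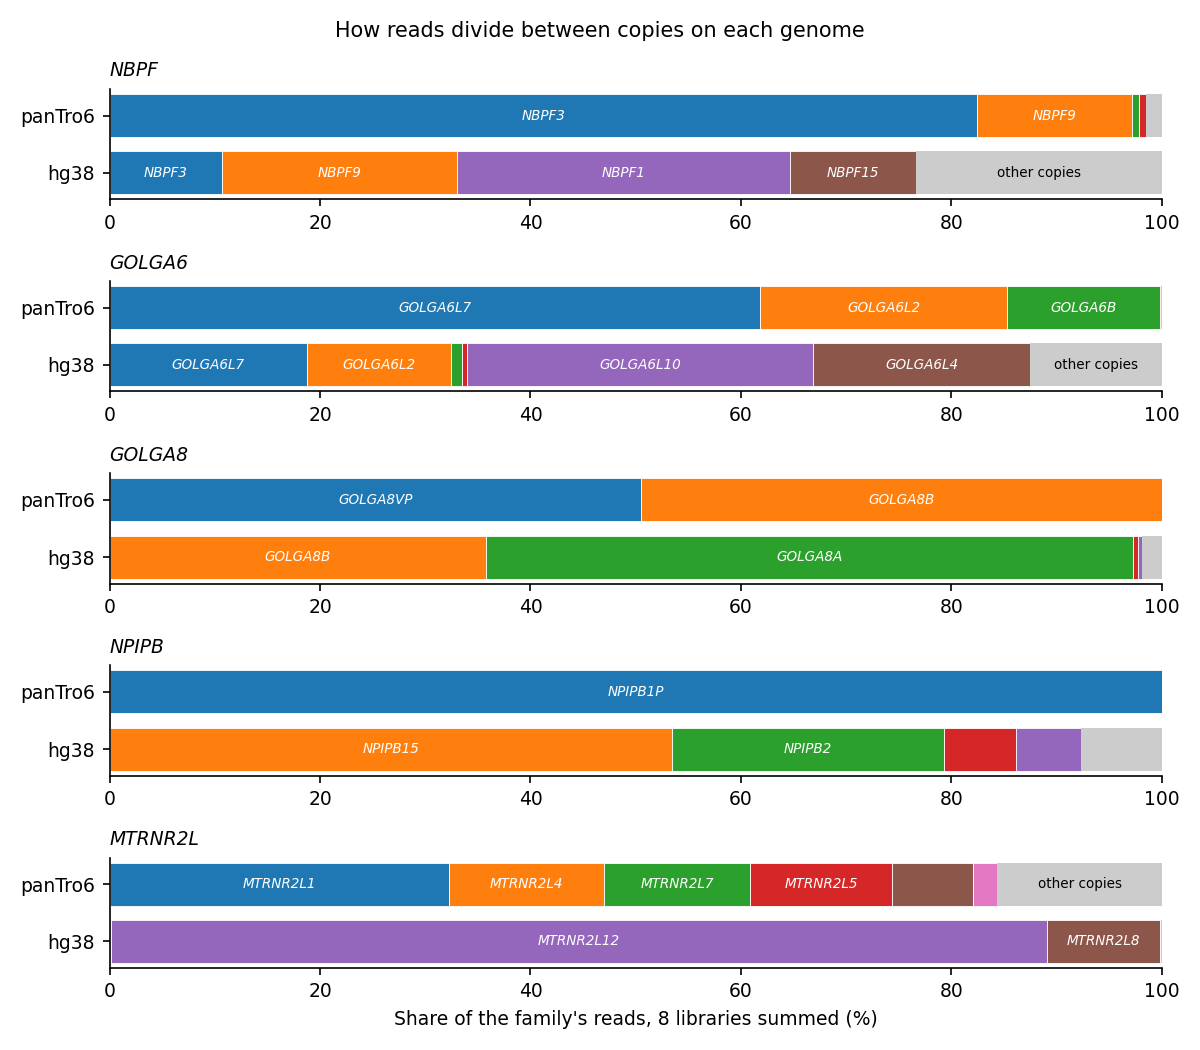
Share of each family's reads held by each copy, as percent of the reads of 8 libraries summed, with panTro6 above hg38 in each panel. Coloured segments are the leading copies, the narrow ones without a name, and grey segments are all other copies. NBPF3 fills 82.4% of the NBPF bar on panTro6 and 10.7% on hg38, and the NPIPB bar on panTro6 is NPIPB1P alone.

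The golgin-derived families also differed. GOLGA8 took 0.536 ± 0.551 CPM on panTro6, where 18 of 20 rows were listed at 0, and 321 ± 129 CPM on hg38. GOLGA8A was listed at 0 on panTro6 and had a lowest, median and highest library of 117, 172 and 328 CPM on hg38, with 62.3% ± 5.11 of the family's reads. GOLGA8B had 0 to 27 counts on panTro6 and 610 to 2947 counts on hg38, where it held 34.7% ± 5.40. GOLGA8H and GOLGA8Q, with medians of 1.23 and 1.13 CPM on hg38, were at 0 on panTro6. GOLGA6 took 6.76 ± 4.42 CPM on panTro6 and 34.7 ± 9.61 CPM on hg38. GOLGA6L7 held 63.6% ± 19.5 of these reads on panTro6 and 18.6% ± 3.77 on hg38. GOLGA6L2 held 20.7% ± 19.5 on panTro6, and GOLGA6B had a mean of 1.02 CPM on panTro6 and 0.335 CPM on hg38. GOLGA6L10, GOLGA6L4 and GOLGA6L9, at means of 11.4, 7.09 and 3.93 CPM on hg38, were listed at 0 on panTro6.

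SRGAP2, whose protein shapes membranes during neuronal migration and spine formation, was read at close levels on both genomes. It had a lowest, median and highest library of 59.5, 170 and 223 CPM on panTro6 and 56.5, 133 and 191 CPM on hg38, and a log2 ratio of 0.27 ± 0.09. The partial copies SRGAP2B and SRGAP2C had 231 of the 14428 SRGAP2-family counts on hg38, a share of 1.60% (exact Clopper-Pearson 95% interval 1.40% to 1.82%), and they were listed at 0 on panTro6. The hg38 share ran from 0.731% to 4.14% over the libraries. SRGAP2B, with a mean of 1.74 CPM on hg38, made up most of it. These are chimpanzee reads placed on human-genome rows, so the share does not show that the line carries or expresses these copies. The same holds for the hg38 shares of the ARHGAP11, FAM72 and NOTCH2NL copies given below. FAM72A lies beside SRGAP2 in RefSeq's chimpanzee annotation (assembly NHGRI_mPanTro3-v2.0), where both loci overlap. Without strand, reads from a stretch within both loci cannot be assigned to 1 of them, whereas reads from outside it can. Whether the loci overlap on panTro6 or hg38 was not checked.

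ARHGAP11A, whose protein acts during cell division, had a lowest, median and highest library of 1.15, 24.5 and 67.0 CPM on panTro6 and 1.55, 24.6 and 69.4 CPM on hg38. ARHGAP11B had 45 of 5130 counts of the pair on panTro6, a share of 0.877% (exact 95% interval 0.641% to 1.17%), and 12 of 2994 on hg38, a share of 0.401% (0.207% to 0.699%). The share ran from 0.186% to 14.3% over the libraries on panTro6 and from 0% to 6.52% on hg38. On panTro6 it was 13.5% in N, 2.07% in bIP, 0.689% in bRG and 0.374% in aRG, populations that also differ in ARHGAP11A itself. No library had more than 11 ARHGAP11B counts on panTro6 or 4 on hg38. The exact intervals of this and the other copy shares pool the libraries and take every read as independent. Reads contain PCR copies, so the intervals are too narrow even for counting error, and they leave out the spread between libraries.

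FAM72A, whose protein acts on a uracil-removing repair enzyme, had 24 counts over all libraries on panTro6, against a mean of 1.30 CPM on hg38. FAM72B, FAM72C and FAM72D together had 5 of the family's 29 counts on panTro6 and 63 of 204 on hg38, a share of 30.9% (exact 95% interval 24.6% to 37.7%). The 3 NOTCH2NL rows were listed at 0 on panTro6 beside 10073 NOTCH2 counts. On hg38 they had 299 of 18370 counts summed with NOTCH2, a share of 1.63% (1.45% to 1.82%), which ran from 0.478% to 10.3% over the libraries. NOTCH2NLC carried most of these, with a lowest, median and highest library of 1.16, 2.61 and 3.15 CPM. NOTCH2NLA had a median of 0.361 CPM.

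The other families were low on at least 1 genome. All 5 AGAP rows, copies of genes for Arf GTPase-activating proteins, were listed at 0 on panTro6. On hg38 the family had 21.6 ± 2.87 CPM, of which AGAP4 held 83.5% ± 3.07 and AGAP9 15.4% ± 2.98. POTE genes, which encode ankyrin-repeat proteins known mainly from prostate, ovary, testis and placenta, took 0.657 ± 0.484 CPM on panTro6 and 5.86 ± 2.44 CPM on hg38, and POTEC and POTEE, at medians of 1.07 and 1.09 CPM on hg38, were listed at 0 on panTro6. POTEI had medians of 0.208 CPM on panTro6 and 0.744 CPM on hg38. ANKRD20A and TBC1D3 had higher sums on panTro6, at 1.20 ± 0.550 and 1.69 ± 0.999 CPM, against 0.198 ± 0.188 and 0.140 ± 0.137 CPM on hg38. Those sums came from rows that are not among the shared symbols, led by ANKRD20A19P and TBC1D3P5, with medians of 0.438 and 1.11 CPM on panTro6. With shared symbols only, the log2 ratio of the family sum was -0.25 for ANKRD20A and -0.18 for TBC1D3. TBC1D30, TBC1D31 and TBC1D32 together took 130 ± 42.4 CPM on panTro6 and 142 ± 44.6 CPM on hg38.

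Differences between populations were tested with the quasi-likelihood method of edgeR in 1 fit per table, with Benjamini-Hochberg adjustment over all genes of the table. Fold changes are log2 differences of the first population minus the second, and a gene passed at an adjusted p under 0.05. On panTro6 a filter on low counts passed 24 of the 164 members, and 4 of these passed the test in at least 1 of the 6 comparisons. They were ARHGAP11A, SRGAP2, TBC1D30 and TBC1D32. In bulk RNA fewer cells of a type and less RNA per cell cannot be told apart.

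ARHGAP11A was low in neurons and high in radial glia. On panTro6 it had 2.05 and 1.04 TMM-scaled CPM in N, 6.68 and 11.8 in bIP, 26.0 and 33.8 in bRG, and 53.1 and 38.7 in aRG. The libraries of the 4 populations did not overlap. Expression was lower in N than in aRG by a log2 fold change of -4.88 (SE 0.49, edgeR adjusted p = 6.46e-05), and the values within library numbers 1 and 2 were -4.70 and -5.22. N was also below bRG (-4.27, SE 0.48, edgeR adjusted p = 0.000247) and below bIP (-2.57, SE 0.45, edgeR adjusted p = 0.0103), and bIP was below aRG (-2.31, SE 0.43, edgeR adjusted p = 0.0117). Between bIP and bRG the log2 fold change of -1.69 did not pass (edgeR adjusted p = 0.0985), nor did that of -0.62 between bRG and aRG (edgeR adjusted p = 1). The call of N against bIP was lost without N replicate 2 (edgeR adjusted p = 0.0618) or bIP replicate 2 (0.0536), and that of bIP against aRG without bIP replicate 1 (0.0804). On hg38 the values were 3.34 and 1.67 in N, 10.9 and 13.7 in bIP, 33.2 and 39.9 in bRG, and 67.7 and 43.2 in aRG, in the same order.

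A list of 20 mitosis genes, all tested on panTro6, went the same way as ARHGAP11A. In N against aRG 19 were lower, where 4.8% of all genes were, and their median log2 fold change was -5.65, against -0.08 over all genes tested. In N against bRG 19 were lower (3.39% of all genes), in N against bIP 13 (1.48%), in bIP against aRG 19 (1.5%) and in bIP against bRG 16 (0.574%). Between bRG and aRG 0 of them passed with edgeR (0.00283% of all genes), and their median was -1.16. Summed choroid plexus markers were highest in aRG (942 to 3249 TMM-scaled CPM). Summed mesenchyme markers (5 genes) were at 15.8 to 38.8 in N, 126 to 127 in bIP, 264 to 305 in bRG and 350 to 1712 in aRG, the same order of populations as ARHGAP11A. The part of either in these differences was not tested.

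SRGAP2 was lowest in intermediate progenitors. On panTro6 it had 201 and 201 TMM-scaled CPM in N, 80.2 and 47.4 in bIP, 99.5 and 161 in bRG, and 118 and 160 in aRG. The bIP libraries lay below all others, those of bRG and aRG overlapped, and both N libraries lay above all others. The difference between N and bIP passed, with a log2 fold change of 1.66 (SE 0.33, edgeR adjusted p = 0.0196) and values of 1.33 and 2.09 within library numbers 1 and 2. Without bIP replicate 2 it was 1.33 and did not pass (edgeR adjusted p = 0.175). The differences of bIP from aRG (-1.12, edgeR adjusted p = 0.105) and from bRG (-1.03, edgeR adjusted p = 0.234) did not pass, nor did those of N from aRG (0.54, edgeR adjusted p = 0.374) and bRG (0.63, edgeR adjusted p = 0.340). On hg38 N had 190 and 206, bIP 78.5 and 56.9, bRG 98.3 and 166, and aRG 113 and 148 TMM-scaled CPM, and N against bIP gave 1.55 (SE 0.30, edgeR adjusted p = 0.0161), a call lost without N replicate 2 (0.0771) or bIP replicate 2 (0.155).

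TBC1D30 and TBC1D32, which are TBC domain genes linked to cilia and not copies of TBC1D3, were highest in neurons. TBC1D30 had 33.4 and 56.1 TMM-scaled CPM in N, 16.1 and 10.7 in bIP, 6.48 and 17.0 in bRG, and 6.33 and 4.69 in aRG on panTro6. Both N libraries lay above all others, and the bIP and bRG libraries overlapped. It was higher in N than in aRG by 3.02 (SE 0.51, edgeR adjusted p = 0.00218) and than in bRG by 1.93 (SE 0.49, edgeR adjusted p = 0.0371), and the second call was lost without N replicate 2 (0.209) or bRG replicate 1 (0.263) and with only N and bRG in the fit (0.0758). Within library numbers 1 and 2, N against aRG gave 2.40 and 3.58 for TBC1D30 and 1.14 and 2.08 for TBC1D32. TBC1D32 had 106 and 104 in N, 76.9 and 55.2 in bIP, 49.2 and 38.4 in bRG, and 48.2 and 24.7 in aRG, with the bRG and aRG libraries overlapping. It was higher in N than in aRG by 1.53 (SE 0.34, edgeR adjusted p = 0.0126) and than in bRG by 1.26 (SE 0.34, edgeR adjusted p = 0.0479). The bRG call was lost without any 1 of the N or bRG libraries (adjusted p 0.0999 to 0.229), and the aRG call without aRG replicate 2 (0.115). On panTro6 N against bIP passed for neither TBC1D30 (1.74, edgeR adjusted p = 0.0896) nor TBC1D32 (0.67, edgeR adjusted p = 0.373). TBC1D31 did not pass in any comparison, with means of 24.2 ± 0.32 in N, 22.7 ± 0.81 in bIP, 28.8 ± 0.27 in bRG and 34.7 ± 12.7 in aRG (SD, n = 2).

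**Figure D4:**
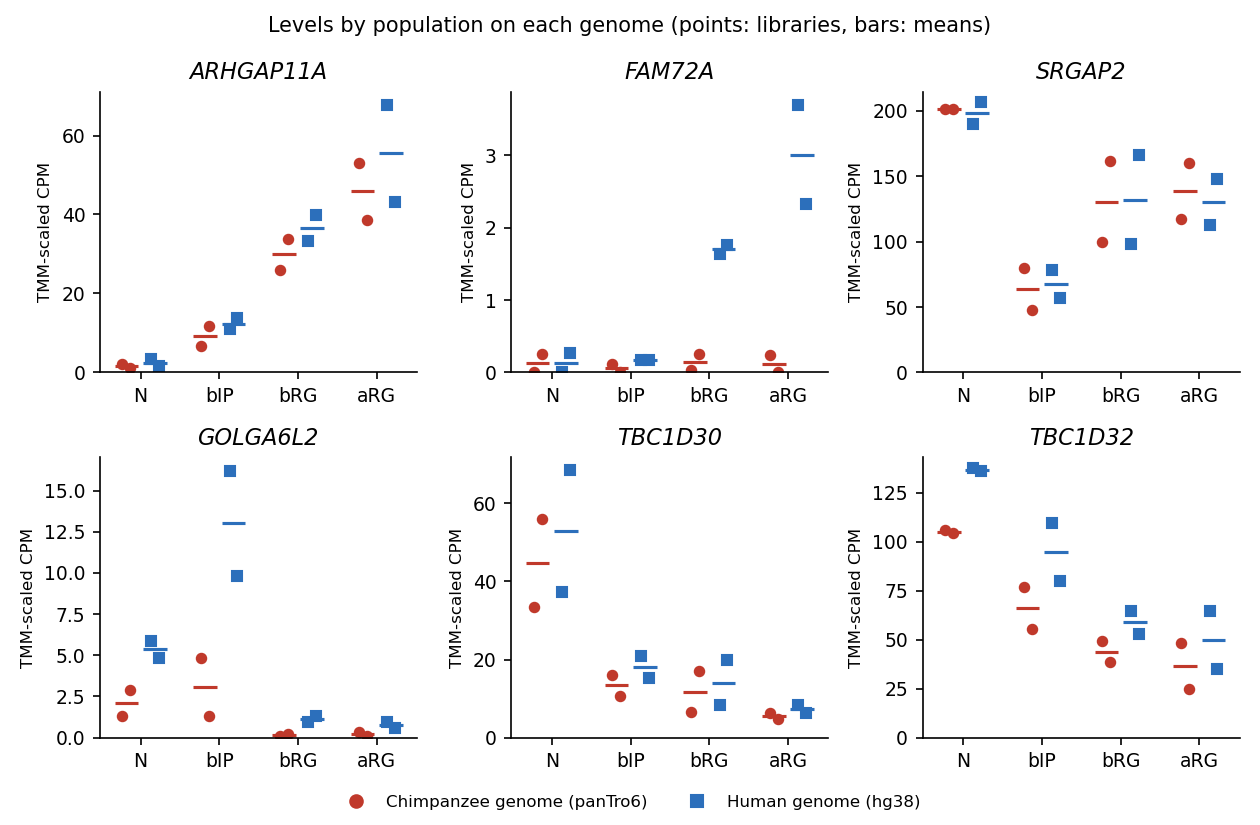
TMM-scaled CPM by population (N, bIP, bRG, aRG) for 6 members. Points are libraries, bars are means of 2 libraries, circles are panTro6 and squares hg38, each scaled within its own table. ARHGAP11A is lowest in N and highest in aRG on both genomes, SRGAP2 is lowest in bIP, and FAM72A has a gradient on hg38 beside panTro6 values of at most 0.259.

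Per comparison on panTro6, 2 of the 24 members tested passed in N against bIP, where 2.54% of all genes did. In N against bRG 3 passed, beside 6.01% of all genes, and in N against aRG 3, beside 9.67%. In both, TBC1D30 and TBC1D32 were among these. Without TBC1D30 to TBC1D32, 21 members were tested and ARHGAP11A alone passed in each. In bIP against aRG 1 passed, beside 2.83%. In bIP against bRG, where 1.03% of all genes passed with edgeR, 0 members did and 4 had an unadjusted p under 0.05. DESeq2 called 2 members there (ARHGAP11A and GOLGA6L2), beside 3.33% of all genes. In bRG against aRG 0 members passed with edgeR (0.00283% of all genes) or DESeq2 (0.334%), and 2 had an unadjusted p under 0.05. No share of all genes is given for the unadjusted counts, so they cannot be read as a result about the members. The median log2 fold change of the tested members was -0.24 in N against aRG, with -0.08 over all genes tested, and 0.19 in N against bIP, with -0.10.

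More members could be tested on hg38, where the filter passed 64 of 112. In N against bIP 2 passed (5.74% of all genes), in N against bRG 4 (12.2%), in N against aRG 5 (19.2%), in bIP against bRG 1 (2.96%) and in bIP against aRG 3 (7.28%). Those of N against bRG and of N against aRG included TBC1D30 and TBC1D32. Without TBC1D30 to TBC1D32, 61 members were tested. In bRG against aRG 0 passed with edgeR (0.00612% of all genes) or DESeq2 (0.667%). There 2 had an unadjusted p under 0.05, again without a share of all genes beside it. The members called on hg38 and not on panTro6 were GOLGA6L2, FAM72A and NPIPA1. Both tables count the same libraries, so they do not check each other.

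GOLGA6L2, a golgin copy, had 5.90 and 4.84 TMM-scaled CPM in N, 16.2 and 9.83 in bIP, 0.957 and 1.31 in bRG, and 0.923 and 0.597 in aRG on hg38. The N and bIP libraries lay above all bRG and aRG libraries. It was higher in bIP than in aRG by 4.10 (SE 0.63, edgeR adjusted p = 0.00360) and in bIP than in bRG by 3.51 (SE 0.61, edgeR adjusted p = 0.0141). In N the differences were 2.82 from aRG (SE 0.61, edgeR adjusted p = 0.00845) and 2.24 from bRG (SE 0.59, edgeR adjusted p = 0.0320). Within library numbers 1 and 2, bIP against aRG gave 4.14 and 4.04. That call held without any 1 library, whereas N against aRG was lost without aRG replicate 2 (0.0707), and both differences from bRG were lost without either bRG library or bIP replicate 1 among others. On panTro6 it had 34 and 67 counts in N, 124 and 33 in bIP, 4 and 8 in bRG, and 8 and 4 in aRG, and the N and bIP libraries again lay above all bRG and aRG libraries. There the log2 fold change of bIP against aRG was 3.82 (SE 1.11) and did not pass (edgeR adjusted p = 0.106).

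FAM72A, known as a gene of dividing neural progenitors, had 0 and 3 counts in N, 2 and 2 in bIP, 24 and 27 in bRG, and 44 and 39 in aRG on hg38. The radial glia libraries lay above those of N and bIP. N had 0.0428 times the aRG level over both libraries (exact counting interval 0.00864 to 0.129, with every read taken as independent). All N counts came from 1 library. The edgeR log2 fold change was -4.46 (SE 1.26) and passed (edgeR adjusted p = 0.0306). That call was lost in 5 of the 8 refits that leave out 1 library. Among them were those without N replicate 1 (log2 fold change -3.46) and without aRG replicate 1 (-4.13). The differences of N from bRG and of bIP from aRG did not pass (edgeR adjusted p = 0.0844 and 0.0756). On panTro6 FAM72A had 0 and 6 counts in N, 3 and 0 in bIP, 1 and 8 in bRG, and 6 and 0 in aRG, with all populations overlapping.

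NPIPA1 had 17.9 and 20.4 TMM-scaled CPM in N, 23.3 and 28.2 in bIP, 12.6 and 15.4 in bRG, and 10.4 and 9.91 in aRG on hg38. Both bIP libraries were above all others. It was higher in bIP than in aRG by 1.34 (SE 0.34, edgeR adjusted p = 0.0397), a call lost in 6 of the 8 refits that leave out 1 library. Several copies with many reads on hg38 passed in no comparison with edgeR. NPIPB15 averaged 722 ± 96.5 in N, 643 ± 0.82 in bIP, 617 ± 55.2 in bRG and 546 ± 65.3 in aRG (TMM-scaled CPM, SD, n = 2 here and below). MTRNR2L12 averaged 3709 ± 292 in N, 5289 ± 1232 in bIP, 3434 ± 295 in bRG and 5734 ± 278 in aRG, and N against aRG gave -0.63 (edgeR adjusted p = 0.0744). This difference passed in 1 of 10 alternative fits, as did those of N against bIP and of bIP against bRG. GOLGA8A averaged 238 ± 77.1 in N, 288 ± 60.1 in bIP, 140 ± 35.2 in bRG and 133 ± 27.1 in aRG, and bIP against aRG gave 1.11 (edgeR adjusted p = 0.0578). That difference passed in 5 of 10 alternative fits, with DESeq2 (adjusted p = 0.0131), with the replicate block (0.000981) and without N replicate 1 (0.0426), N replicate 2 (0.0414) or bRG replicate 2. GOLGA8B had 112 and 260 in N, 113 and 157 in bIP, 53.8 and 98.6 in bRG, and 51.2 and 90.9 in aRG, and N against aRG gave 1.38 (edgeR adjusted p = 0.0534). It passed in 5 of 10 alternative fits, with DESeq2 (adjusted p = 0.0111), with the replicate block (0.000533) and without N replicate 1 (0.0151), bRG replicate 1 (0.0375) or bRG replicate 2 (0.0373), and without N replicate 2 its log2 fold change was 0.66 (0.398). NPIPB6 had 33.1 and 157 in N, 17.9 and 32.6 in bIP, 103 and 119 in bRG, and 53.8 and 105 in aRG, and its N libraries differed by more than the libraries of any other population. Both bIP libraries lay below all others. For NPIPB6, bIP against bRG gave -2.14 (edgeR adjusted p = 0.111) and passed in 4 of 10 alternative fits. The difference of bIP from aRG passed in 4 of 10 and that of N from bIP in 3 of 10.

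**Figure D5:**
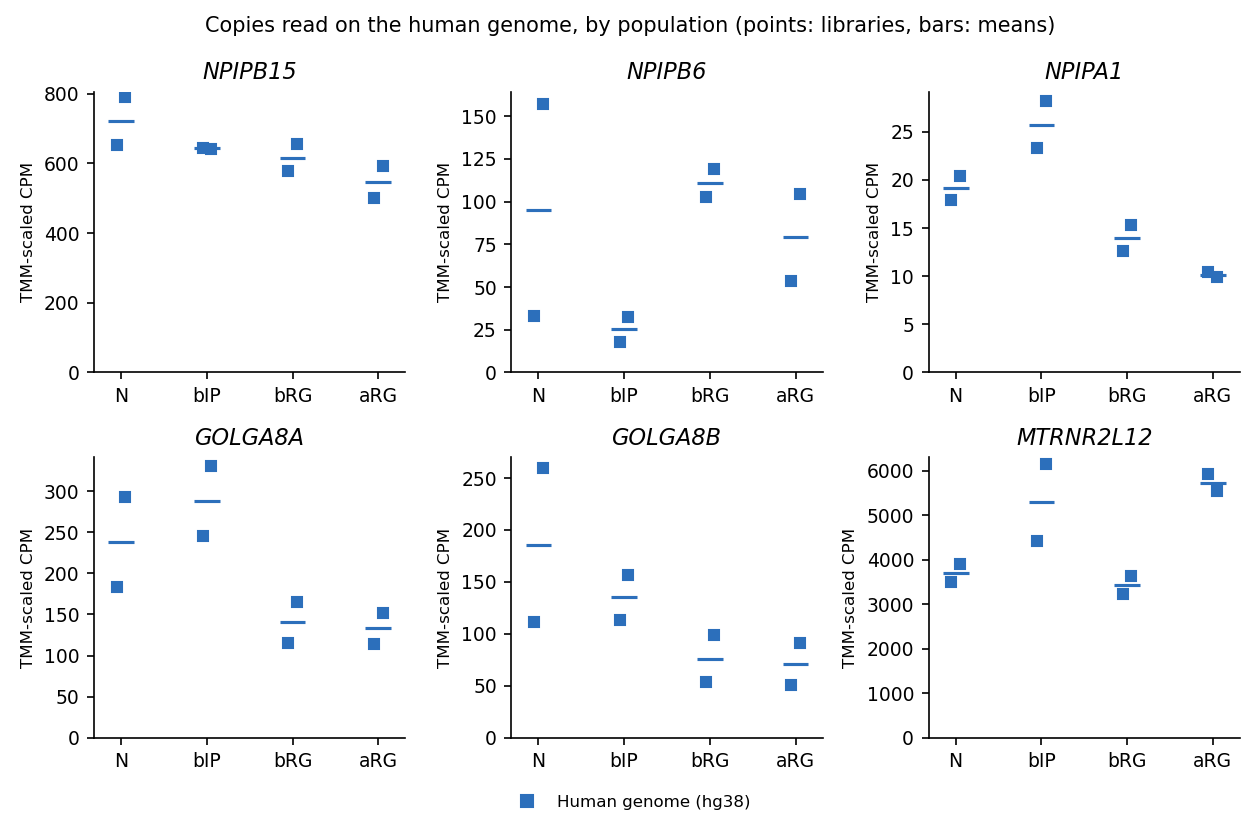
TMM-scaled CPM on hg38 by population for 6 copies that were listed at 0 or had few counts on panTro6. Squares are libraries and bars are means of 2 libraries. NPIPA1 is highest in bIP and lowest in aRG, every N and bIP library of GOLGA8A is above every bRG and aRG library, and the N libraries of NPIPB6 are at 33.1 and 157.

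The share of a copy in its family's reads was taken with the libraries of a population pooled. It was close between populations for MTRNR2L12 on hg38, and further apart for NPIPB6 and NPIPB15 on hg38 and for NBPF3 on panTro6. MTRNR2L12 held 88.8% of MTRNR2L reads in N, 89.0% in bIP, 88.7% in bRG and 89.2% in aRG on hg38. NPIPB6 held 7.15% of NPIPB reads in N, 2.44% in bIP, 8.98% in bRG and 7.27% in aRG. NPIPB15 held 56.3% in N, 62.3% in bIP, 49.9% in bRG and 48.3% in aRG. Over single libraries the NPIPB6 share ran from 1.76% to 10.2% and the NPIPB15 share from 47.1% to 63.4%. The NBPF3 share on panTro6 ran from 74.0% to 90.1%. With libraries pooled on hg38, NBPF3 held 11.2% of NBPF reads in N, 11.9% in bIP, 9.06% in bRG and 10.9% in aRG. No test was made of the shares. On panTro6, NBPF3 held 89.7% of NBPF reads in N, 82.4% in bIP, 80.6% in bRG and 76.4% in aRG, while its own level did not differ between populations by test. It had 53.8 and 44.8 TMM-scaled CPM in N, 28.8 and 35.1 in bIP, 35.0 and 22.8 in bRG, and 24.9 and 39.2 in aRG, with both N libraries above all others (N against bRG 0.77, SE 0.34, edgeR adjusted p = 0.248).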

How the data were processed

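The authors deposited raw counts of reads for each symbol in 8 libraries, with a panTro6 table and an hg38 table. Reads were aligned with STAR, per the submitters' processing notes, while for its version, the gene annotation, the counter, its strand setting and its rule for reads matching several places nothing is given in the sources used here. In the panTro6 table counts of 2 (21576 values) outnumbered counts of 1 (16443), so both mates of a pair may have been counted, and halved counts were tried. A row without a gene name, 0.00545% to 0.00771% of each library, was left out. SmartSeq 2 libraries do not mark strand, and no molecular identifiers are named in the labels, so counts include PCR copies. All columns matched a labelled sample.

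Genes passing filterByExpr (35382 on panTro6, 16353 on hg38) were fitted with edgeR 4.0.16 in R 4.3.3 (TMM, glmQLFit, glmQLFTest), 1 coefficient per population, 4 residual degrees of freedom, two-sided, with p-values adjusted over all genes within each of 6 comparisons and a threshold of 0.05. The script was tested on simulated data. Nothing in the labels shows that both libraries of a population are separate cultures: the p-values reflect how much these libraries vary, and that variation may be technical. Per gene, the chi-square between both libraries was 46.7 to 73.5 times counting noise. Library names form 1 run for number 1 and another for number 2, so values within each number are given for the main calls.

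Between genomes, CPM used totals over shared symbols, and 1 CPM was added before taking log2. Shares are a copy's reads over its family's reads. Alternatives were DESeq2 1.42.0, its size factors, no low-count filter, only the populations compared, the replicate number as a block, halved counts, shared symbols only and each library left out. The members and the lists were chosen with earlier results of these data known. Named are the 2 members of each family with most reads on panTro6, members at 5 CPM or more in a population, members called, the 12 with the strongest difference between genomes in each direction, and members at 0 on 1 genome with 1 CPM or more on the other, 66 in all. Symbols of 29 members are in RefSeq's table of assembly NHGRI_mPanTro3-v2.0, which was used only for overlaps between genes, and 18 in a table of gene names. No sequences or coordinates are given.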

Additional observations from a re-analysis of the deposited data

How the results depend on the processing

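Called members changed in number with the setting, and the share of all genes called in the same fit, in brackets, moved too. On panTro6, N against bIP gave 1 of 16 members with only those populations in the fit (1.89%), where the fit of all libraries gave 2 of 24. DESeq2 gave 5 of 24 in N against aRG (14.8%), against 3, 2 in bIP against bRG (3.33%), against 0, and 3 in bIP against aRG (6.51%), against 1. With no low-count filter, 2 of 49 passed in bIP against bRG (2.34%) and 2 in bIP against aRG (4.25%). The hg38 table, with 64 members tested, gave 5 in N against aRG, 1 in bIP against bRG and 3 in bIP against aRG. On hg38 DESeq2 gave 4 in N against bIP (11.1%), against 2, 4 in bIP against bRG (6.68%), against 1, and 6 in bIP against aRG (11.8%), against 3. Leaving out 1 library gave, on panTro6, 0 to 3 members in N against bIP (1.04% to 3.19%), 1 to 3 in N against bRG (3% to 5.81%), 2 to 3 in N against aRG (5.91% to 8.9%), 0 to 1 in bIP against bRG (0.35% to 1.58%) and 0 to 2 in bIP against aRG (1.45% to 3.52%). On hg38 it gave 0 to 3 (1.55% to 5.44%), 1 to 4 (5.66% to 11.3%), 2 to 7 (12.1% to 17.8%), 0 to 3 (0.505% to 3.59%) and 1 to 6 (3.18% to 7.77%) in the same order of comparisons. Between bRG and aRG it gave 0 members on both genomes. A lone library is assumed to vary like the others. The cause was not tested. Of 688 refits of single fold changes 567 kept direction and side of the threshold, 47 lost a call, 74 gained one and 0 reversed.

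Same-numbered libraries deviated together only weakly over all genes tested on panTro6 (correlations 0.0462 to 0.104, all positive), and the numbers were not taken as pairs. Those correlations do not show that the number is without effect. A replicate block raised the share of all genes called in all 6 comparisons on both genomes. In N against aRG it rose from 9.67% to 14% on panTro6 and from 19.2% to 28.1% on hg38. With the number as a replicate block, panTro6 gave 1 member in bIP against bRG (3.17% of all genes) and 2 in bIP against aRG (6%), and hg38 gave 5 in N against bIP (12.8%), 9 in N against aRG (28.1%), 7 in bIP against bRG (8.4%) and 8 in bIP against aRG (14.3%).

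The number of members lower on panTro6 was 34 under each other setting tried and 41 with a pseudocount of 0.1 CPM, and 0 were higher in each. The TBC1D3 family sum had a log2 ratio of 1.17, which turned to -0.18 with shared symbols only, since its reads on panTro6 lie in rows that are not shared, and to -0.11 with TBC1D30 to TBC1D32 counted in, which hold far more reads. With totals over all named rows the median log2 ratio of all shared symbols lay at -0.24 to -0.15. Depth limits ARHGAP11B, FAM72 and NOTCH2NL, whose counts per library are few.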

Other observations

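On hg38 the highest mean lay in N for 31 of the 64 tested members, in bIP for 9, in bRG for 12 and in aRG for 12. The population with the highest mean exceeded the one with the lowest by a median of 1.73-fold, and by under 2-fold in 38 members. The same counts were not taken over all genes tested, so they cannot be read as a leaning of these families to a population.

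Within hg38, 18 of the 64 tested members were higher in library number 2 than in number 1 in all 4 populations, among them GOLGA8A, GOLGA8B, NPIPB2, NPIPB6 and MTRNR2L8, and 3 were higher in number 1 (MTRNR2L7, NBPF9 and TBC1D32). GOLGA8B, for example, had 260 and 112 TMM-scaled CPM in N numbers 2 and 1, and 90.9 and 51.2 in aRG numbers 2 and 1. These genes were chosen after their values were seen, and no test was made of the difference between numbers. The matching count over all genes was not taken, so these counts cannot be read as a trait of the members.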
